A study of Saccharomyces cerevisiae with 24 samples.

Results

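The genes described here are the yeast genes that lie nearest the chromosome ends and have no name beyond the systematic one. The nuclear protein-coding genes of the RefSeq annotation (assembly R64) were ordered along each chromosome, the 15 outermost genes of each of the 32 ends were kept (480 genes), and 127 of these were unnamed. Of the 127, 88 had at least 1 probe set on the array and 39 had none, so the members are 88 of the 5446 nuclear protein-coding genes measured, on 92 of the 5498 probe sets tested. They came from 30 of the 32 ends. A probe set is the group of short probes on an array that reports 1 transcript.

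RNA from 24 independent cultures of *Saccharomyces cerevisiae*, 3 for each of 8 strains, had been hybridised to 1 Affymetrix Yeast Genome 2.0 array each. The cultures were grown at 30 °C in the minimal medium SMM and harvested in mid-log phase. All strains are haploid MATa and share *his3Δ1 leu2Δ0 ura3Δ0 met15Δ0*. They are the wild type (BY4741), 4 single mutants that lack *HTZ1* (*htz1Δ*) or a gene of the SWR1 complex (*swr1Δ*, *swc2Δ* or *swc5Δ*), and 3 double mutants that join *htz1Δ* with each of the latter. The *htz1Δ* strain also lacks *BAR1* (*bar1Δ::hyg*) and the *htz1Δ swc5Δ* strain also carries *lys2Δ0*, which the wild type does not. The comparison of *htz1Δ* with any other strain is therefore also one of *bar1Δ* with *BAR1*. Each strain is 1 line by its name, apart from *swr1Δ*, where the strain number differs between the 3 replicates.

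*HTZ1* encodes the histone variant H2A.Z, which stands in for H2A in nucleosomes beside many promoters. The SWR1 complex puts it there: Swr1 is the ATPase and scaffold, Swc2 (gene *VPS72*) binds H2A.Z, and Swc5 is needed for the exchange. Yeast chromosomes end in telomeric repeats followed by X elements and, at some ends, Y' elements, repeats that contain helicase-like reading frames. Genes close to the ends can be silenced by the Sir proteins, and H2A.Z is known as one of the factors that limits how far such silencing spreads inward.

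Values are log2 expression, so 1 unit is a doubling, and means are given ± SD over 3 cultures. Strains were compared with limma, with 1 mean per strain and p adjusted by Benjamini-Hochberg over all 5498 probe sets. Lowered and raised mean a change of more than 2-fold whose adjusted p was below 0.05. The *swr1Δ*, *swc2Δ* and *swc5Δ* arrays lay at other levels as deposited (medians from 9.29 to 10.10, against 9.71 to 9.77 for the other 15 arrays) and were mapped by rank to the distribution of those 15. Levels in these 3 strains, and every comparison with them, therefore rest on that mapping, and a difference in array processing cannot be told apart from the mutation. The deleted genes stood at 2.23 to 4.66 in the strains that lack them. *HTZ1*, *SWR1*, *VPS72* and *SWC5* were at 7.59 or above in all others. *BAR1* was at 2.65 to 3.22 in *htz1Δ* and at 11.55 or above elsewhere. Of the mating-type markers, the 6 a-cell genes were at 10.82 or above apart from *BAR1* in *htz1Δ*. Of the 4 α-cell genes *MF(ALPHA)1* and *MF(ALPHA)2* were between 3.86 and 5.54, *SAG1* was between 8.19 and 9.46, and *STE3* was at 7.68 to 7.78 in wild type and 4.55 to 5.96 in the mutants.

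The members were expressed at low levels. Their median was 6.23 (range 2.07 to 11.93) over the 15 unmapped arrays, against 8.88 for the 298 probe sets of named genes among the same outermost genes, 8.67 for the 416 of unnamed genes elsewhere and 9.74 for all tested. Probe sets for another yeast species on the same array, which measure background, had a median of 2.77 and a 95th percentile of 3.74. Of the 92 member probe sets, 77 (83.7%) were above that percentile and 15 were not, whereas 98.6% of all tested were above it. The level showed little gradient along the end, with medians of 6.14 at orders 1 to 5, 6.26 at orders 6 to 10 and 6.60 at orders 11 to 15.

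The highest members in wild type were *YBL113C* (12.09 ± 0.02), *YMR315W* (11.74 ± 0.04), *YMR321C* (11.72 ± 0.06), *YBL100W-B* (11.66 ± 0.19) and *YBL112C* (11.41 ± 0.17). *YBL113C* and *YBL112C* are Y' element frames, and *YBL100W-B* is the Gag-Pol gene of a Ty2 retrotransposon. Their probe sets, and that of *YMR321C*, end in _s_at, which marks probes shared by several transcripts, so these values can add up several copies. The lowest were 2 probe sets of *YOL166W-A* (2.03 ± 0.19 and 2.31 ± 0.12), 1 of the 2 of *YPL277C* (2.55 ± 0.17), *YFR057W* (2.77 ± 0.46) and *YOR381W-A* (2.89 ± 0.33). *YFR057W* is the outermost gene of the right end of chromosome VI and is known as a target of Sir silencing. All 5 were within the background range.

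Loss of H2A.Z went with falls in many of these genes. Of the 92 probe sets 23 (25%) were lowered in *htz1Δ* against wild type, where 3.55% of all tested were, and 2 (2.17%) were raised, close to the 2.11% of all tested. At any size of change 49 were below wild type and 6 above it past the adjusted p, where 26.9% and 24.2% of all tested were. The median change of the members was -0.48, against -0.17 for named genes at the ends, -0.11 for unnamed genes elsewhere and -0.02 for all tested. Among the other groups 49 of 298 (16.4%) named genes at the ends and 34 of 416 (8.17%) unnamed genes elsewhere were lowered.

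The 2 members that fell most by fold were *YIR042C*, the outermost gene of the right end of chromosome IX, and *YER187W* near the right end of chromosome V, both of unknown function. *YIR042C* was at 5.56, 6.13 and 6.16 in wild type and 2.75, 3.38 and 3.48 in *htz1Δ*. It fell 6.71-fold (log2 change -2.75, standard error 0.305, adjusted p = 1.0e-06, limma). *YER187W* was at 7.33, 8.05 and 7.58 in wild type and 4.84, 5.15 and 4.81 in *htz1Δ*, a 6.59-fold fall (-2.72, standard error 0.338, adjusted p = 3.4e-06). For both genes every *htz1Δ* array was below every wild-type array. *YOR387C*, a relative of the yeast gene *VEL1*, had a larger difference of -2.96 that did not pass (standard error 1.43, adjusted p = 0.091), because its cultures varied within strains: 7.98, 8.97 and 6.89 in wild type and 4.28, 6.62 and 4.07 in *htz1Δ*.

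At 3 ends, measured members that follow each other in order, though not always as adjacent genes, were lowered together. On the left of chromosome I these were *YAL064W-B* (-1.80, standard error 0.153, adjusted p = 4.3e-08), *YAL064W* (-1.82, standard error 0.284, 4.2e-05) and *YAL063C-A* (-1.99, standard error 0.227, 1.3e-06), beside the named flocculin gene *FLO9*. On the right of the same chromosome they were *YAR068W* (-1.45, standard error 0.213, 2.1e-05), *YAR066W* (-2.20, standard error 0.346, 4.6e-05) and *YAR064W* (-1.38, standard error 0.201, 1.9e-05). *YAR066W* and *YAR064W* are on _s_at probe sets, and *YAR066W* and *YAR068W* have close relatives on the right of chromosome VIII. On the right of chromosome III they were *YCR101C* (-1.86, standard error 0.217, 1.7e-06) and *YCR099C* (-1.45, standard error 0.217, 2.6e-05), of which the latter resembles part of the sorting receptor Vps10. Members nearer the end on the left of chromosome I (*YAL067W-A* and *YAL065C*) and the right of chromosome III (*YCR108C* and *YCR102C*) were not lowered. After quantile normalization of all arrays *YCR099C* (-0.83) and *YAR064W* (-0.76) were under 2-fold. In wild type *YAR066W* was at 5.92, 5.96 and 5.89 and in *htz1Δ* at 3.29, 3.67 and 4.22, and *YCR101C* was at 6.13, 6.46 and 5.74 against 4.08, 4.38 and 4.30.

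Lowered members were spread over the genome: 15 of the 30 ends with a member had at least 1 and 6 had 2 or more. *YDL241W* on the left of chromosome IV was at 8.13, 8.34 and 7.78 in wild type and 6.45, 6.25 and 6.39 in *htz1Δ* (-1.72, standard error 0.233, adjusted p = 9.3e-06). *YOL159C-A* on the left of chromosome XV had the smallest error of the lowered members, with 7.78, 7.99 and 7.93 against 6.42, 6.49 and 6.47 (-1.44, standard error 0.0969, adjusted p = 1.8e-09). *YLR456W*, which resembles pyridoxamine phosphate oxidases, lay just past the limit of 2-fold (standard error 0.115, adjusted p = 1.5e-06). The 4 members on the right and 2 on the left of chromosome XIII held none that was lowered, nor did the 6 probe sets on the left of chromosome XII.

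The 2 raised members were *YOR385W* on the right of chromosome XV and *YJL213W* on the left of chromosome X, which resembles amidohydrolases. *YOR385W* rose from 9.91, 10.42 and 9.68 to 11.34, 11.22 and 11.11 (1.22, standard error 0.236, adjusted p = 3.4e-04). *YJL213W* rose from 6.64, 6.93 and 6.69 to 7.77, 7.83 and 7.80 (1.05, standard error 0.278, adjusted p = 0.0043), and was under 2-fold without wild-type replicate 1 (0.99). Neither was raised in any other mutant.

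**Figure D1:**
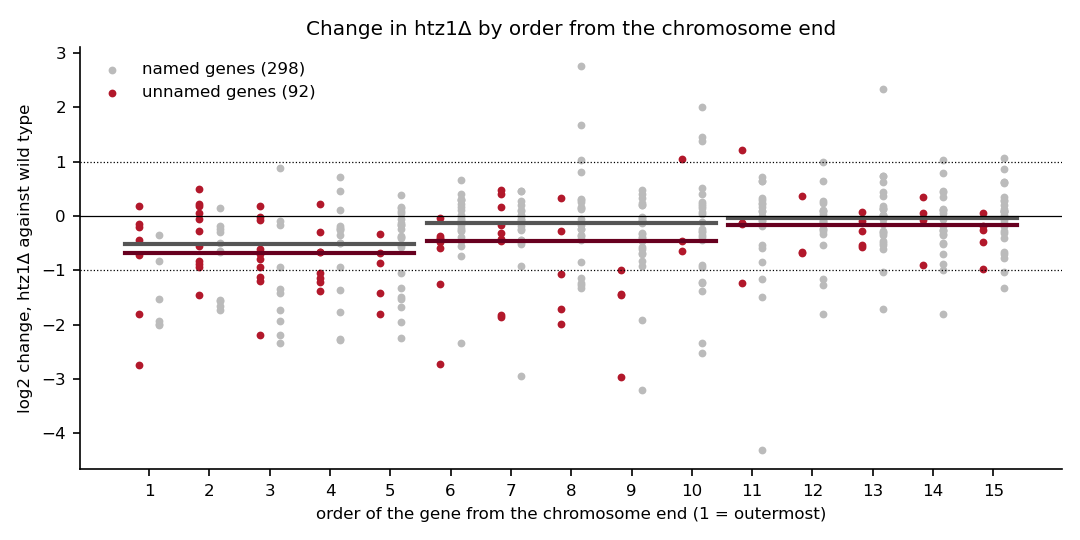
Log2 change of each probe set in *htz1Δ* against wild type (y) by the order of its gene from the chromosome end (x, 1 is outermost), for the 92 probe sets of unnamed genes (red) and 298 of named genes (grey). Bars are medians of orders 1 to 5, 6 to 10 and 11 to 15, dotted lines mark 2-fold, and the medians of the unnamed genes are -0.67, -0.46 and -0.17.

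Of the 23 members lowered in *htz1Δ*, 22 were among the outer 10 genes of their end. At orders 1 to 5, 12 of 41 member probe sets were lowered (29.3%, median change -0.67), at orders 6 to 10, 10 of 29 (34.5%, -0.46), and at orders 11 to 15, 1 of 22 (4.55%, -0.17). Named genes at the same ends went from 25 of 64 (39.1%) at orders 1 to 5 to 12 of 113 (10.6%) at orders 6 to 10 and 12 of 121 (9.92%) at orders 11 to 15. The 5 members at order 15 changed by -0.98 to 0.06 and none was lowered, and *YJL206C*, the 1 unnamed gene measured at order 16, changed by 0.28. These shares are descriptions, and the difference between the bins was not tested.

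Low expression went with the falls. Among all tested probe sets 30.2% of the 255 with a mean level of 4 to 6 were lowered in *htz1Δ*, 9.59% of the 563 at 6 to 8 and 1.22% of the 4579 above 8. Members were lowered in 10 of 23 (43.5%), 8 of 31 (25.8%) and 3 of 19 (15.8%) in the same ranges, and in 2 of 19 (10.5%) under 4, where 7.92% of the 101 tested were. Named genes at the ends were lowered in 18 of 47 (38.3%) at 4 to 6, 18 of 60 (30%) at 6 to 8, 13 of 179 (7.26%) above 8 and 0 of 12 under 4. None of the 23 lowered members was in the background range by its mean over the unmapped arrays. In 5 of them (*YAL064W*, *YAR066W*, *YAR064W*, *YIR042C* and *YHR213W-A*) the *htz1Δ* mean was, so that the size of those falls was limited by the background of the array. Probe sets that match 1 transcript only (_at) were lowered in 18 of 72 members (25%) and those shared between transcripts in 5 of 20 (25%), against 3.17% and 19.5% of all tested. When the dimmest 25% of all probe sets were left out, 15 member probe sets remained and 13.3% of them were lowered in *htz1Δ*, where 1.12% of all those left were.

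Fewer members were called lowered in the strains without a SWR1 subunit than in *htz1Δ*. In *swr1Δ* 14 of 92 (15.2%) were lowered and 2 (2.17%) raised, against 1.76% and 0.837% of all tested. In *swc2Δ* 10 (10.9%) were lowered and 1 (1.09%) raised, against 1.6% and 0.746%. In *swc5Δ* 13 (14.1%) were lowered and 1 (1.09%) raised, against 2.27% and 0.527%. With the values as deposited, without rank mapping, 32.6% of members and 6.13% of all tested were lowered in *swr1Δ*, whose deposited arrays lie lower as a whole. Median changes of the members were -0.26, -0.23 and -0.26, and those of all tested -0.02, -0.01 and -0.00. The comparisons share the 3 wild-type arrays and are therefore not independent of each other.

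The shares in the double mutants were near those in the single SWR1 mutants. In *htz1Δ swr1Δ* 15 members (16.3%) were lowered and 2 (2.17%) raised, where 2.06% and 0.764% of all tested were. After quantile normalization 7.61% of members and 1.09% of all tested were lowered there. In *htz1Δ swc2Δ* 12 (13.0%) were lowered and none of the 92 raised, where 1.67% and 0.509% were. With limma's unadjusted p under 0.05 still none was raised over 2-fold, and 3 were above wild type past the adjusted p at any size, where 15% of all tested were. In *htz1Δ swc5Δ* 11 (12.0%) were lowered and 1 (1.09%) raised, where 1.49% and 0.673% were. The median changes of the members were -0.43, -0.34 and -0.28.

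**Figure D2:**
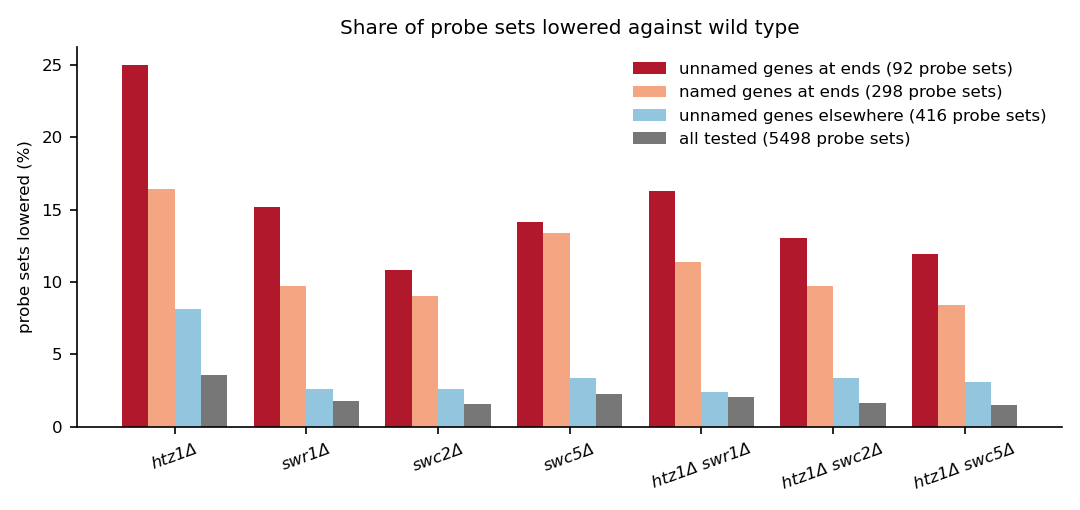
Percent of probe sets lowered by more than 2-fold with an adjusted p below 0.05 (y) in each of the 7 mutants against wild type (x), for unnamed genes at chromosome ends, named genes at chromosome ends, unnamed genes elsewhere and all tested probe sets. The unnamed genes at ends have the highest bar in each mutant, from 10.9% in *swc2Δ* to 25% in *htz1Δ*. The bars pool all orders and all levels, and the unnamed genes are dimmer. At a mean level of 6 to 8 named genes at ends had the higher share in each mutant (30% against 25.8% in *htz1Δ*, 20% against 12.9% in *swc2Δ*). At 4 to 6 the order differed between mutants (38.3% against 43.5% in *htz1Δ*, 23.4% against 21.7% in *swc2Δ*). At orders 1 to 5 named genes had the higher share in each mutant (39.1% against 9.76% in *swc5Δ*, 39.1% against 29.3% in *htz1Δ*). At orders 6 to 10 unnamed genes did (31.0% against 7.08% in *swc5Δ*, 34.5% against 10.6% in *htz1Δ*).

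Members fell into kinds by how many mutants they were lowered in. Of the 92, 61 (66.3%) were lowered in none, 12 in 1 mutant, 11 in 2 to 5 mutants, 1 in 6 and 7 (7.61%) in all 7. Of all tested 95% were lowered in none and 0.673% in all 7. The 7 were *YIR042C*, *YAL063C-A*, *YCR101C*, *YCR099C*, *YDL241W*, *YJL218W* and *YDR541C*, and the 1 lowered in 6 was *YER187W*. At any size of change 19 (20.7%) were below wild type in all 7 mutants, where 5.62% of all tested were. None of the 92 was above it in all 7 past limma's adjusted p, where 3.42% were. Since each of these comparisons has the same wild-type arrays, a high wild-type value would enter all of them.

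Some of the 7 shared genes were lowered to a similar extent in all mutants and others were not. *YIR042C* lay between 2.75 and 4.54 on the 21 mutant arrays, below 5.56, the lowest wild-type array, with changes from -2.75 in *htz1Δ* to -1.93 in *htz1Δ swc2Δ*. *YCR101C* lay between 3.96 and 5.02 on the mutant arrays (changes -2.01 to -1.53) and *YCR099C* between 3.83 and 4.87 (-1.69 to -1.36), also without overlap with wild type. *YJL218W*, which resembles acetyltransferases, was at 7.73, 7.66 and 7.58 in wild type and between 5.65 and 6.77 in the mutants (-1.79 in *swc2Δ* to -1.13 in *swc5Δ*). *YDR541C*, which resembles carbonyl reductases, was at 8.48, 8.73 and 8.68 in wild type. It fell most in *swc5Δ*, to 6.85, 5.77 and 5.71 (-2.52, standard error 0.257, adjusted p = 8.6e-07), and least in *htz1Δ* (-1.12, standard error 0.257, adjusted p = 0.0015), where it was under 2-fold without *htz1Δ* replicate 3 (-0.96).

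*YER187W* missed the set of 7 in *swc5Δ* alone. There its cultures stood at 5.56, 6.89 and 7.66, and the difference from wild type was -0.95 against -2.23 to -2.72 in the 6 other mutants, which lay between 4.81 and 5.71. *swc5Δ* replicate 1 also stood apart from replicates 2 and 3 for other members. *YIR042C* was at 4.54, 3.30 and 3.29, *YAR066W* was at 4.15 on replicate 1 and up to 5.61 on the others, and *YEL076C* at 7.68, 8.58 and 8.49.

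**Figure D3:**
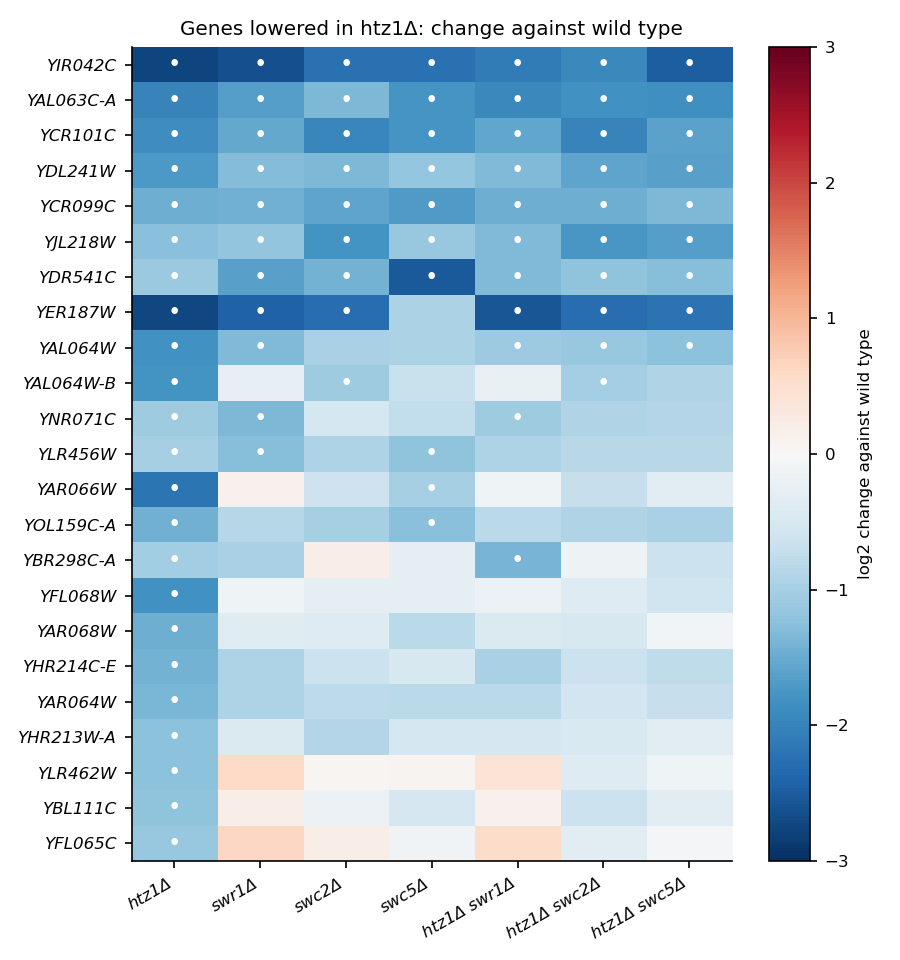
Log2 change against wild type (colour, blue is lower) of the 23 members lowered in *htz1Δ* (rows) in the 7 mutants (columns), with a white dot where it is called lowered. The 7 genes at the top have a dot in every column and the 8 at the bottom in the *htz1Δ* column alone.

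Part of the members lowered in *htz1Δ* were higher again in the double mutants. Against *htz1Δ*, 12 of the 92 members (13.0%) were raised and 2 (2.17%) lowered in *htz1Δ swr1Δ*, where 1.33% and 1.29% of all tested were. In *htz1Δ swc2Δ* 3 (3.26%) were raised and 1 (1.09%) lowered, against 0.946% and 0.928%, and in *htz1Δ swc5Δ* 7 (7.61%) and 2 (2.17%), against 1.07% and 1.15%. Of these 12, 3 and 7 raised members, only 7, 2 and 5 were among those lowered in *htz1Δ*. The share raised in *htz1Δ swc2Δ* was 6.52% without *htz1Δ* replicate 2 and 5.43% without *htz1Δ swc2Δ* replicate 1. Among the 72 probe sets that match 1 transcript only, 4.17%, 1.39% and 4.17% were raised in the 3 double mutants, where 1.08%, 0.894% and 1.01% of all such probe sets were. Of the 23 lowered in *htz1Δ*, 10 were higher again in all 3 double mutants at any size of change: *YAL064W-B*, *YAR066W*, *YAR064W*, *YAR068W*, *YBL111C*, *YFL068W*, *YFL065C*, *YLR462W*, *YHR213W-A* and *YOL159C-A*. For 10 others no double mutant passed for a return: 6 of the 7 shared genes, *YAL064W*, *YER187W*, *YLR456W* and *YNR071C*. The comparisons with *htz1Δ* reuse its 3 arrays, on which these 23 were low by the way they were picked. The share of returns among all 195 tested probe sets lowered in *htz1Δ* is not given here. The 10 of 23 are therefore not read as particular to the members. The double mutants have *BAR1*, so loss of *BAR1* and presence of the SWR1 subunit cannot be told apart in these differences from *htz1Δ*.

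*YAR066W* gave the widest return. It was at 5.77, 5.77 and 5.85 in *htz1Δ swr1Δ*, at 4.46, 5.52 and 5.70 in *htz1Δ swc2Δ* and at 5.22, 5.85 and 5.74 in *htz1Δ swc5Δ*, all above the highest *htz1Δ* array (4.22). The differences from *htz1Δ* were 2.07, 1.5 and 1.88 (standard error 0.346 each, adjusted p = 1.9e-04, 0.0028 and 5.8e-04). *YFL068W*, the outermost gene of the left end of chromosome VI and a Y' element gene, was at 7.60, 7.92 and 7.87 in wild type and 5.74, 6.35 and 5.86 in *htz1Δ*. In the double mutants it was between 7.07 and 7.83, higher than in *htz1Δ* by 1.64 with *swr1Δ*, 1.41 with *swc2Δ* and 1.21 with *swc5Δ* (standard error 0.193, adjusted p = 7.5e-06, 4.1e-05 and 1.9e-04). *YAL064W-B* came back to 6.78, 6.77 and 6.57 in *htz1Δ swr1Δ*, close to its 6.85, 6.93 and 7.03 in wild type, and to 5.58 to 6.21 in the other double mutants.

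**Figure D4:**
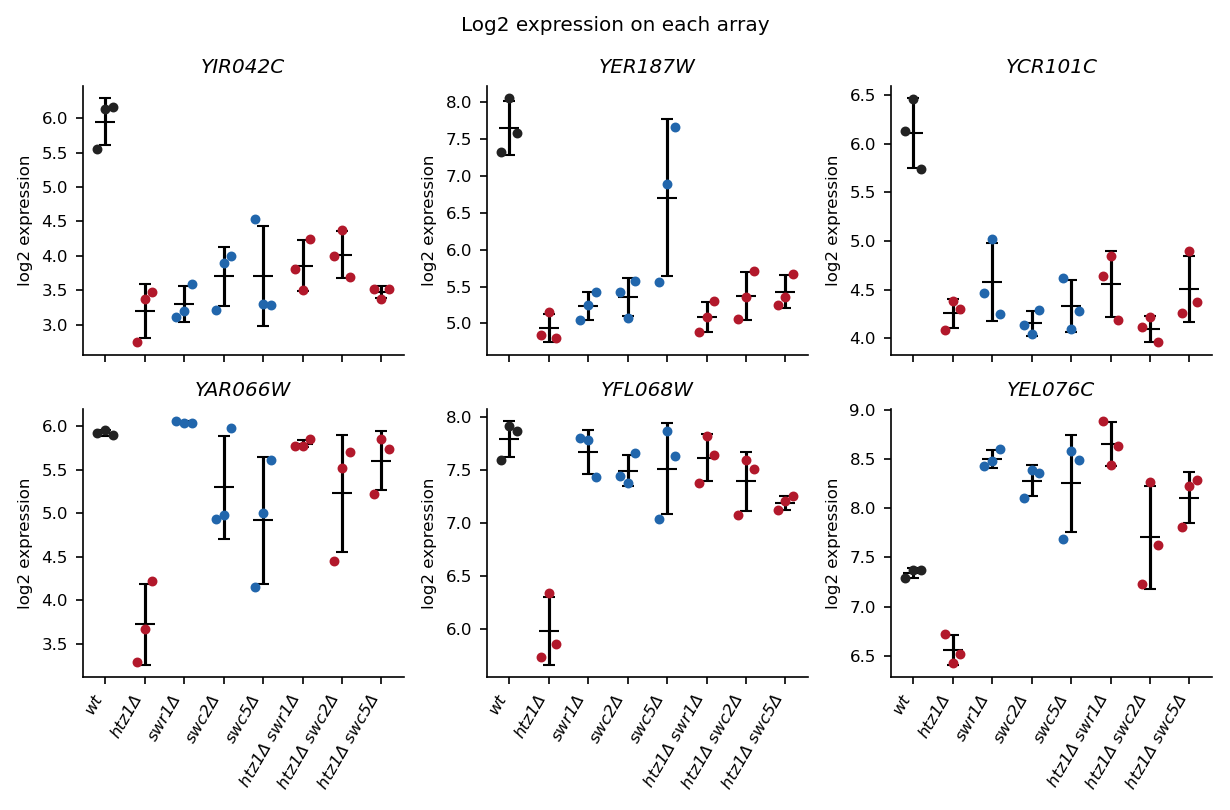
Log2 expression on each of the 24 arrays (points, replicates 1 to 3 from left to right) with mean and SD for 6 members, in wild type (black), the single SWR1 mutants (blue) and the strains without *HTZ1* (red). The upper genes are low in the mutants (*YER187W* in *swc5Δ* is spread from 5.56 to 7.66), and the lower genes are lowest in *htz1Δ*.

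Several of these genes also set *htz1Δ* apart from the single SWR1 mutants. Of the 92 members 13 (14.1%) were lower in *htz1Δ* than in *swr1Δ*, 9 (9.78%) lower than in *swc2Δ* and 9 (9.78%) lower than in *swc5Δ*, where 1.67%, 1.35% and 1.02% of all tested were. As deposited the shares were 8.70% for *swr1Δ* and 25% for *swc2Δ* (0.655% and 4.91% of all tested). Without probe sets shared between transcripts they were 5.56% for each single mutant (1.45%, 1.21% and 0.875%). Here too loss of *BAR1* in *htz1Δ* cannot be told apart. Of the 23 lowered in *htz1Δ* against wild type, 7, 7 and 6 were among them, and *YAR066W*, *YFL068W*, *YFL065C* and *YLR462W* were in all 3 sets. *YAR066W* was at 6.06, 6.04 and 6.04 in *swr1Δ* (difference -2.32, standard error 0.346, adjusted p = 5.1e-05) and at 4.15 to 5.98 in *swc2Δ* and *swc5Δ*. Without *swc5Δ* replicate 1, the share of members lower in *htz1Δ* than in *swc5Δ* was 15.2%.

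In cells without Swr1 or Swc2, removing H2A.Z changed little over all tested probe sets, members included. The low counts there are thus not particular to the members. None of the 92 members differed over 2-fold between *htz1Δ swr1Δ* and *swr1Δ*, where 0.0546% of all tested did, and 1 member (*YHR214C-D*, -0.61) passed limma's adjusted p at any size, where 1.24% of all tested did. At an unadjusted p under 0.05, 9 of 92 passed at any size. None differed between *htz1Δ swc2Δ* and *swc2Δ*, where 0.0364% did, with no member past limma's adjusted p at any size, where 0.0728% were, and 12 at an unadjusted p under 0.05. The shares of all tested at that unadjusted p are not given here. The counts of 9 and 12 are therefore not read as a result about the members. Between *htz1Δ swc5Δ* and *swc5Δ* 3 (3.26%) differed, where 0.982% did: *YER187W* (-1.27, standard error 0.338, adjusted p = 0.029) and *YEL073C* (-1.27, standard error 0.328, 0.025) were lower and *YDR541C* (1.23, standard error 0.257, 0.0081) was higher. None of these 3 passed in a fit of those 6 arrays alone (adjusted p from 0.27 to 0.42).

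Whether the effect of *htz1Δ* depended on a subunit was tested by the interaction. It is the change due to *htz1Δ* in the single mutant minus that in wild type. It passed the adjusted p for 36 members (39.1%) with *swr1Δ*, 39 (42.4%) with *swc2Δ* and 45 (48.9%) with *swc5Δ*, where 32.8%, 31.9% and 35.2% of all tested passed. The share of members was thus only somewhat above that of all probe sets. The sign differed more: 33, 33 and 41 of those members had a positive interaction, that is a smaller fall or none without the subunit, while among all tested 871 of 1802, 974 of 1756 and 1032 of 1933 were positive. An interaction subtracts the *htz1Δ* change against wild type, so a gene lowered in *htz1Δ* leans to a positive value. A gene already near background in a single mutant cannot show a further fall in the double mutant, which leans it the same way. The *htz1Δ* strain alone is *bar1Δ*, so a difference due to *BAR1* enters every interaction and cannot be told apart from it. All 23 lowered members had positive estimates, from 0.61 to 3.30.

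Among the members are 13 genes of Y' elements on 15 probe sets, out of 54 Y' genes listed from general knowledge. In *htz1Δ* their median change was -0.78, with 4 lowered (*YFL068W*, *YLR462W*, *YBL111C* and *YFL065C*) and 9 below wild type at any size. Of all tested 3.55% were lowered and 26.9% below, and of all tested probe sets shared between transcripts 19.5% were lowered. The 4 lowered Y' genes were among the 10 lowered members that were higher again in all 3 double mutants. In the following, all the Y' probe sets are counted, lowered or not. In *swr1Δ*, *swc2Δ* and *swc5Δ* their medians were 0.03, 0.08 and 0.08, and in the double mutants 0.01, -0.32 and -0.13. Against *htz1Δ* 8 of the 15 were raised in *htz1Δ swr1Δ*, 2 in *htz1Δ swc2Δ* and 4 in *htz1Δ swc5Δ*, where 1.33%, 0.946% and 1.07% of all tested were. Most of these probe sets are shared between copies (_s_at or _x_at), so the 15 are not independent measurements and may report the same transcripts.

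On the left of chromosome V the neighbouring Y' genes *YEL076C* and *YEL076C-A* were above wild type in SWR1 mutants. *YEL076C* was at 7.29, 7.38 and 7.37 in wild type, 6.73, 6.43 and 6.52 in *htz1Δ*, 8.42, 8.47 and 8.60 in *swr1Δ* and 8.88, 8.43 and 8.63 in *htz1Δ swr1Δ*. It thus rose in *swr1Δ* (1.16, standard error 0.224, adjusted p = 5.9e-04) and fell by less than 2-fold in *htz1Δ* (-0.78, standard error 0.224, adjusted p = 0.0071). From *htz1Δ* to *htz1Δ swr1Δ* it rose 4.26-fold (2.09, standard error 0.224, adjusted p = 2.9e-06). *YEL076C-A* was at 7.33, 7.65 and 7.99 in wild type and 7.87, 7.91 and 7.76 in *htz1Δ*. It was raised in *swr1Δ* (1.64, standard error 0.202, 5.8e-06), *swc2Δ* (1.08, 5.0e-04), *swc5Δ* (1.06, 5.7e-04) and *htz1Δ swr1Δ* (1.55, 1.1e-05). With the values as deposited, the rise of *YEL076C* in *swr1Δ* was under 2-fold (0.67), and without wild-type replicate 1 those of *YEL076C-A* in *swc2Δ* and *swc5Δ* were (0.92 and 0.90). They also were without *swc2Δ* replicate 2 (0.94) and without *swc5Δ* replicate 2 or 3 (0.97 each).

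**Figure D5:**
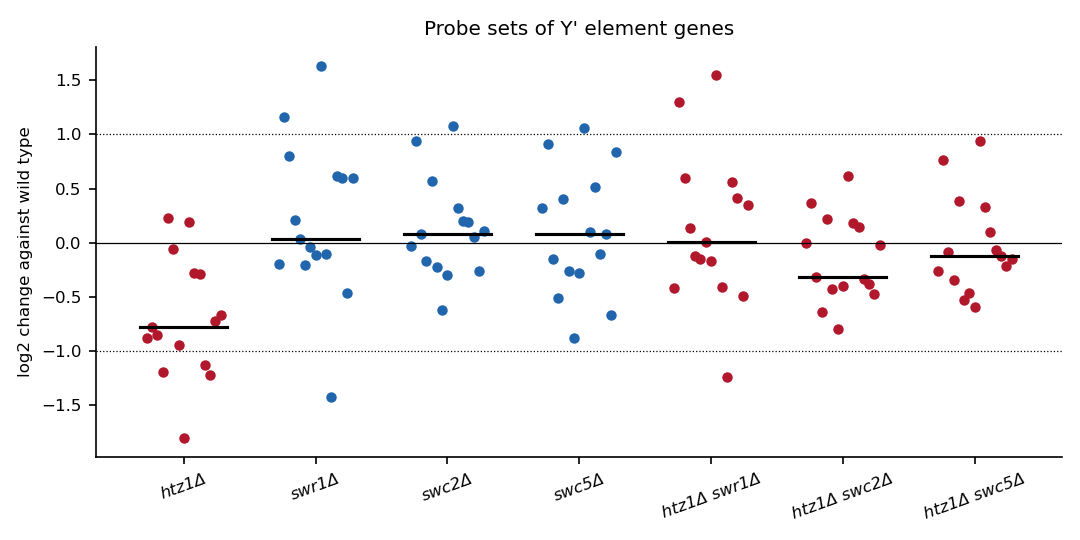
Log2 change against wild type (y) of the 15 probe sets of Y' element genes among the members, in each of the 7 mutants (x). Black bars are medians and dotted lines mark 2-fold. The median is -0.78 in *htz1Δ* and between -0.32 and 0.08 in the other mutants.

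Some members were low in SWR1 mutants and were not lowered in *htz1Δ*. *YER188C-A*, which is on the list of Y' genes and lies on the right of chromosome V, was at 6.41, 6.46 and 6.51 in wild type and 4.80, 5.18 and 5.12 in *swr1Δ*, with 5.27, 5.24 and 5.13 in *htz1Δ swr1Δ* and 6.04 or above in the other strains. *YOR394C-A* on the right of chromosome XV was at 6.92, 7.09 and 7.04 in wild type, 5.84, 6.10 and 6.13 in *swr1Δ* and 5.98, 6.17 and 5.78 in *htz1Δ swr1Δ*, and at 6.72 or above elsewhere. Both were low in the strains without Swr1 and did not overlap with the rest, but in *swr1Δ* the change of *YOR394C-A* was just under 2-fold (-0.99, adjusted p = 1.9e-05). *YOR394C-A* was lower in *htz1Δ swr1Δ* than in *htz1Δ* (-1.10, standard error 0.135, adjusted p = 1.2e-05), and so was *YIL165C*, part of a nitrilase gene (-1.09, standard error 0.284, 0.0060). The call for *YOR394C-A* was lost after quantile normalization (-0.96) and without *htz1Δ swr1Δ* replicate 3, and that for *YIL165C* without *htz1Δ* replicate 2 or 3 (-0.97 and -0.94) or *htz1Δ swr1Δ* replicate 1 (-0.99). *YEL073C* was lowered in *swc2Δ* (-1.42), *htz1Δ swc2Δ* (-1.61) and *htz1Δ swc5Δ* (-1.85), and differed by -0.33 in *htz1Δ*, which did not pass (adjusted p = 0.41). *YOL163W* and *YOL162W*, neighbours on the left of chromosome XV that resemble allantoate permeases, were at 5.80 to 6.19 and 5.96 to 6.30 in wild type. In *swr1Δ* both were lowered, to 4.42 to 4.89 (-1.41, standard error 0.294, adjusted p = 0.0011) and 4.88 to 5.23 (-1.12, standard error 0.257, adjusted p = 0.0025). In *htz1Δ* their differences of -0.67 and -0.58 did not pass (adjusted p = 0.063 and 0.065). *YMR317W*, which has many serines and threonines, was raised in *htz1Δ swc5Δ* (1.45, standard error 0.366, adjusted p = 0.0047), at 5.80, 5.96 and 6.87 against 5.24, 4.96 and 4.08 in wild type.

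*YOR387C* varied widely within strains. Over the 24 arrays it ran from 3.77 to 10.30, and in *htz1Δ swr1Δ* alone its cultures were at 4.38, 8.46 and 8.44. It was lower in *htz1Δ* than in *swc2Δ* (-4.02, adjusted p = 0.031), and that call was lost without either of *htz1Δ* replicates 1 and 3 or *swc2Δ* replicates 1 and 2.

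Genes that act in silencing at chromosome ends were measured in the same arrays. Of 17 such genes 7 were above wild type in *htz1Δ* and 5 below it at any size, where 24.2% and 26.9% of all tested were. Over 2-fold 1 was lowered, where 3.55% of all tested were: *RIF2*, which binds telomeres through Rap1 (-1.16, standard error 0.168, adjusted p = 1.8e-05). *SUM1*, a repressor, was higher by 0.78 (standard error 0.0792, adjusted p = 3.5e-07) and *SAS5*, a subunit of a histone acetyltransferase, was lower (-0.85, standard error 0.0974, adjusted p = 1.5e-06). None of the 17 was lowered or raised over 2-fold in the 6 other mutants, where 1.49% to 2.27% of all tested were lowered and 0.509% to 0.837% raised. None of 8 listed genes of the DUP240 family was among the measured members. The part of these genes in the members' changes was not tested.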

How the data were processed

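The authors scanned the arrays with GCOS, summarised them by RMA (background correction, quantile normalization, median polish) and deposited the results on a log2 scale, with 1 value per probe set and array between 1.61 and 14.72. Genes were ordered by their start in the RefSeq table (R64), and no coordinates are printed. Of 10928 probe sets, 5498 have exactly 1 *S. cerevisiae* gene and were tested. The rest belong to another species (1746), to several genes (1) or have no gene here (3683). The 9 *swr1Δ*, *swc2Δ* and *swc5Δ* arrays were mapped by rank, over the tested probe sets, to the mean sorted values of the other 15. limma 3.58.1 in R 4.3.3 fitted 1 mean per strain to all 24 arrays (16 residual and 2.80 prior degrees of freedom). In simulated data with 200 changed genes of 5498, it called 98% of 1.5 and 100% of 2 log2 unit changes in *htz1Δ*. Members and lists were chosen with earlier results of these data known. Named genes are the 10 most lowered and 5 most raised called members in *htz1Δ*, 5 of each in other comparisons, the 5 largest interactions, those called in all 7 mutants, those in runs and the 5 highest and lowest. *YER188C-A*, *YOL159C-A*, *YLR456W*, *YHR214C-D*, *YJL206C*, *YNR064C* and *YOR387C* were singled out after their values were seen. Other scalings, filters, limits of the ends, fits and left-out arrays were tried. Sequence features were not analysed here. The number of arrays limits the precision. The p values rest on the spread between cultures within strains, pooled over all strains. Apart from *swr1Δ* the cultures of a strain are of 1 line by name, so differences between lines of 1 genotype are not measured.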

Additional observations from a re-analysis of the deposited data

Results flagged for a closer look

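These results stand out because the effect of *htz1Δ* differed between a strain with the intact complex and one without a subunit, by a test of the difference itself (limma interaction, adjusted p under 0.05). It passed for 39.1% of members with *swr1Δ*, 42.4% with *swc2Δ* and 48.9% with *swc5Δ*, not far above the 32.8%, 31.9% and 35.2% of all tested probe sets. The *htz1Δ* strain alone is *bar1Δ*, which cannot be told apart from these differences.

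With *swr1Δ* the largest were *YIR042C* (3.30), *YER187W* (2.57), *YAL064W* (2.06), *YAR066W* (1.95) and *YCR101C* (1.84). With *swc2Δ* they were *YIR042C* (3.06), *YER187W* (2.74), *YAR066W* (2.13), *YAL064W-B* (1.84) and *YCR101C* (1.80). With *swc5Δ* they were *YAR066W* (2.88), *YIR042C* (2.51), *YDR541C* (2.35), *YAR068W* (2.16) and *YCR101C* (2.04). In each the change due to *htz1Δ* was more negative with the subunit present. For *YIR042C* and *YCR101C* the single mutants were themselves low. *YIR042C* differed in *htz1Δ* from *swr1Δ*, *swc2Δ* and *swc5Δ* by -0.10, -0.50 and -0.51, which did not pass (limma adjusted p = 0.81, 0.19 and 0.20). For *YAR066W* the *swr1Δ* arrays were at 6.06, 6.04 and 6.04, near wild type. The *htz1Δ* mean of *YIR042C* was in the background range, which limits the falls that can be measured. Its double mutants with *swr1Δ*, *swc2Δ* and *swc5Δ* were above *htz1Δ* by 0.66, 0.82 and 0.27. Only the difference with *swc2Δ* passed (limma adjusted p = 0.044). How far the background enters its interactions was not tested.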

How the results depend on the processing

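The share of members lowered in *htz1Δ* was 21.7% to 28.3% when any 1 array was left out, and median centring and the 20 outermost genes moved none of the 20 shares reported by over 1.5 times. With the values as deposited, 32.6% were lowered in *swr1Δ*, 8.70% were lower in *htz1Δ* than in *swr1Δ*, 25% lower than in *swc2Δ*, 5.43% differed between *htz1Δ swc5Δ* and *swc5Δ*, and 69.6% had an interaction with *swr1Δ*. Quantile normalization left 7.61% lowered in *htz1Δ swr1Δ* and turned the difference of *YOR381W-A* in *htz1Δ* to 0.062 (adjusted p = 0.76). Without the dimmest 25% of probe sets only 15 members remained, of which 13.3% were lowered and 6.67% raised in *htz1Δ*. Then 0% were lowered in *swr1Δ*, *swc5Δ* and *htz1Δ swr1Δ* and 6.67% in *swc2Δ*, *htz1Δ swc2Δ* and *htz1Δ swc5Δ*. Against *htz1Δ*, 20% were raised in *htz1Δ swr1Δ* and 0% in *htz1Δ swc2Δ*, and 6.67% differed between *htz1Δ swc5Δ* and *swc5Δ*. Without probe sets shared between transcripts (72 members left), 4.17%, 1.39% and 4.17% were raised against *htz1Δ* with *swr1Δ*, *swc2Δ* and *swc5Δ*, and 5.56% were lower in *htz1Δ* than in each single mutant. Among the 10 outermost genes 1.43% were raised in *htz1Δ*. Fits of the compared arrays alone gave 5.43% lower in *htz1Δ* than in *swc5Δ* and 0% differing between *htz1Δ swc5Δ* and *swc5Δ*. The cause of these shifts was not tested. Where the share of all tested under a setting is not given above, the share of members is not read as a result about them.

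Leaving out 1 array, the share raised in *htz1Δ* was 1.09% to 2.17% (lowest without wild-type replicate 1). That raised in *htz1Δ swc2Δ* against *htz1Δ* was 3.26% to 6.52% (6.52% without *htz1Δ* replicate 2 and 5.43% without *htz1Δ swc2Δ* replicate 1). That lower in *htz1Δ* than in *swc5Δ* was 7.61% to 15.2% (highest without *swc5Δ* replicate 1), and that differing between *htz1Δ swc5Δ* and *swc5Δ* was 0% to 5.43%, moved without any *swc5Δ* replicate or *htz1Δ swc5Δ* replicate 2. Of the values of single named members, 12 calls were lost, 1 value changed sign and 802 kept direction and side of the threshold over the other settings. With an array left out 30 calls were lost, 1 was gained and 2825 values kept both.

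With the replicate number as a block (replicate block), 25% of members were lowered in *htz1Δ* and 42.4%, 43.5% and 51.1% had an interaction with *swr1Δ*, *swc2Δ* and *swc5Δ*, and no share moved by over 1.5 times. The shares of all tested in that fit are not given here, so these shares are not read as a result about the members. Residuals of arrays with the same number had a median correlation of 0.0945 over 84 pairs (-0.37 to 0.62), against -0.0425 over 168 pairs with different numbers, and 42 of the 84 were over 0.1. By mean correlation 19 of 24 arrays were nearest to arrays of their own number, a hint from the data that numbers may mark something shared; the labels name nothing, so the arrays were not treated as paired. Mapping ranks over all probe sets, chosen after seeing the data, moved no share by over 1.5 times. The 15 members at the level of background limit what a fall there can show.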

Other observations

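2 members were high on a few arrays that share the replicate number 3. *YNR064C*, which resembles epoxide hydrolases, was at 7.06 on *swc2Δ* replicate 3, 6.49 on *htz1Δ swc2Δ* replicate 3 and 6.25 on *swc5Δ* replicate 3, and between 4.18 and 5.16 on the 21 other arrays. *YMR317W* was at 6.25, 6.06 and 6.87 on replicate 3 of *swc2Δ*, *htz1Δ swc2Δ* and *htz1Δ swc5Δ*, and at 5.96 or below elsewhere.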
